A study of Mus musculus with 20 samples.

Results

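The semaphorin, plexin, neuropilin, Eph receptor and ephrin genes were taken as every row of the deposited table whose symbol starts with Sema, Epha, Ephb, Efna or Efnb followed by a digit, starts with Plxn, or equals Nrp1 or Nrp2, and that holds values in the breast cancer (BC) columns. This gave 46 of the 15465 named genes with BC values: 19 semaphorins, 8 plexins, 2 neuropilins, 10 Eph receptors and 7 ephrins. The libraries came from RNA of bulk tumor tissue of an orthotopic mouse model, in which every tumor derived from 4T1, a mouse mammary carcinoma line that spreads to the lung. There were 4 BC lung metastases and 4 BC primary tumors, all taken at 28 days, and the titles give each of mice 1 to 4 a library of both tissues. The strain of the host mice is not given in the sources used here, and all tumors share 1 line. A pancreatic model in the same series (12 columns) was not used, since its values do not line up with the gene symbols. Values below are normalised read counts on a scale of about 1000000 per library, and a log2 change is on the log2(value + 1) scale, as lung metastasis minus primary tumor.

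These families were first known from the nervous system, where they steer growing axons. Semaphorins are secreted or membrane-bound ligands of plexins. Class-3 semaphorins are secreted, and most of them need a neuropilin beside the plexin. The neuropilins also bind VEGF, so the same surface proteins serve vessel growth. Ephrins are held on the cell surface, the A type by a lipid anchor and the B type by a transmembrane segment, and they signal to Eph receptor kinases on the neighbouring cell. Endothelium, epithelium and immune cells use all of these families outside the nervous system.

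Depth ran from 15447918 reads in lung metastasis 3 to 28995834 in primary tumor 3. The tissue labels were checked on marker genes. The summed level of 6 alveolar type 2 genes was 3881 to 11798 in lung metastases, so the metastasis libraries held lung transcripts. It was 89.2 to 101 in primary tumors, most of it from Abca3. Carcinoma epithelium genes were present in both tissues, with a sum over 8 genes of 765 to 3023 in lung metastases and 1303 to 2612 in primary tumors. Of 7 tested genes 1 was higher, Krt19, which averaged 123 in lung metastases and 14.1 in primary tumors. Epcam, at 60.9 and 123, was lower in the metastasis of all 4 mice but did not pass (limma adjusted p = 0.0932). The list holds epithelial genes, so its sum cannot tell carcinoma from lung epithelium. Lung metastasis 3 had the highest alveolar and the lowest carcinoma sum, and primary tumor 2 stood apart from the other primary tumors with the lowest fibroblast and macrophage sums. In bulk tissue, fewer cells of a type and less RNA per cell cannot be told apart.

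Among the 44 guidance genes with enough signal to test, 10 rose in lung metastases and 0 fell (limma, Benjamini-Hochberg adjusted p under 0.05 over 14003 genes). That is 22.7% higher, where 7.18% of all tested genes were called higher and 1.96% were called lower. At an unadjusted p under 0.05, 17 members were higher and 7 lower. No share over all genes is given at that threshold, here or below, so such counts cannot be set against a background. No member was called lower by edgeR, and 4 were by DESeq2: Efna4, Ephb4, Ephb6 and Sema6c, named here after their values were seen. DESeq2 called 1985 genes in both directions together, and its share by direction is not given. The libraries of the groups did not overlap in 12 tested members that were higher and in 4 that were lower, against 10.4% and 7.56% of all tested genes. The median log2 change of the members was 0.36, beside -0.06 over all tested genes. It was 0.43 in mouse 1, 0.20 in mouse 2, 0.73 in mouse 3 and 0.10 in mouse 4. The count of rises was 6 without primary tumor 4 and 7 to 12 without any other library in turn. Epha7 and Ephb1 lay under the filter on low values and were not tested.

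**Figure D1:**
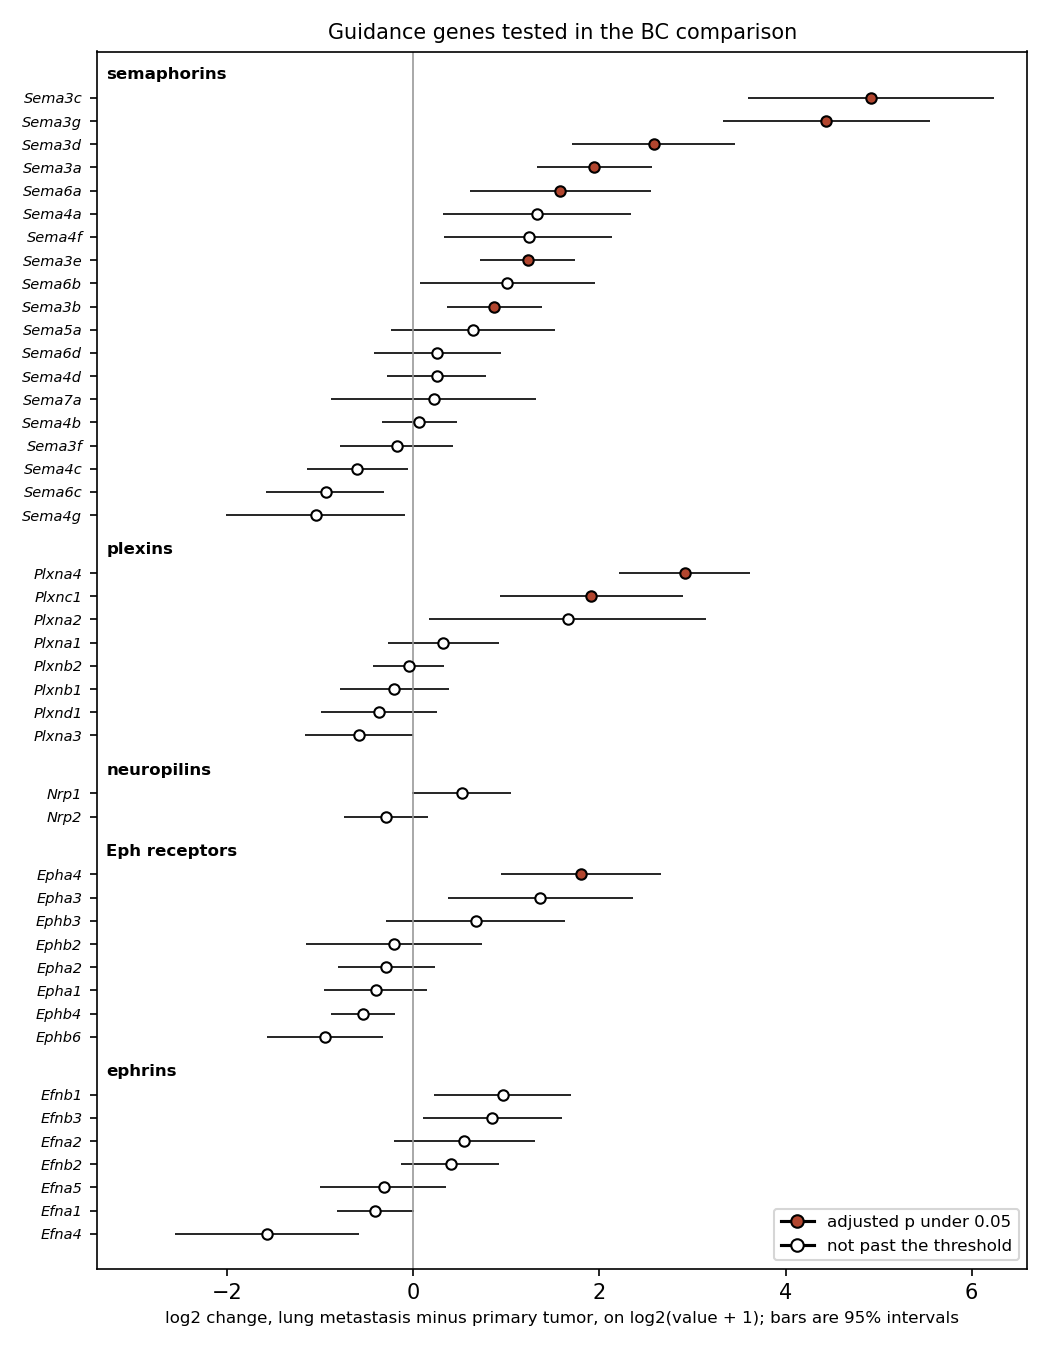
Log2 change of each tested guidance gene (x axis, lung metastasis minus primary tumor on log2(value + 1), n = 4 each) with its 95% interval, grouped by family; filled points passed the adjusted threshold. The 10 filled points are 7 semaphorins, 2 plexins and Epha4, and all lie to the right of 0.

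The class-3 semaphorins carried most of the change. Of the 7 genes, 6 rose in lung metastases (85.7%) and Sema3f alone did not pass, with a median log2 change of 1.94. All 6 were higher in the metastasis of all 4 mice, with no overlap between the groups. Sema3g, which encodes a secreted semaphorin known from endothelium, had 79.4, 68.4, 263 and 43.1 in the lung metastases of mice 1 to 4, against 4.29, 1.97, 5.19 and 1.97 in their primary tumors. Lung metastasis 3 stood above the rest, and the lowest metastasis was still well above every primary tumor. The means were 114 ± 101 and 3.36 ± 1.64 (SD, n = 4 each), a ratio of 33.8 (log2 change 4.44, SE 0.501, adjusted p = 0.000457). Sema3c, known for its part in heart outflow and lung development, had 88.4, 136, 189 and 71.0 in lung metastases, against 1.15, 14.5, 1.58 and 1.34 in primary tumors. Primary tumor 2 was about an order of magnitude above the other primary tumors and still below every metastasis. The ratio of the means was 26.1 (log2 change 4.92, SE 0.596, adjusted p = 0.00068).

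Sema3d, which patterns vessels in development, had 6.09, 14.1, 8.45 and 3.66 in lung metastases, against 0.437, 0.0789, 0.877 and 0.247 in primary tumors. These primary values rest on 46 reads over the 4 libraries, against 763 reads in the lung metastases. The ratio of the means was 19.7 (log2 change 2.59, SE 0.394, adjusted p = 0.00247). Sema3a, the axon-repelling ligand of Nrp1, had 15.4, 27.6, 23.6 and 28.5 in lung metastases, against 4.97, 4.65, 7.48 and 4.44 in primary tumors. Unlike Sema3g and Sema3c, Sema3a was highest in lung metastasis 4 and lowest in lung metastasis 1. Its ratio was 4.41 (log2 change 1.94, SE 0.278, adjusted p = 0.00167). Sema3e, which can bind Plxnd1 without a neuropilin, had 59.1, 58.1, 47.7 and 43.0 in lung metastases, against 32.5, 17.7, 18.2 and 19.8 in primary tumors. Here the metastases lay close together, and primary tumor 1 was the highest of its group (log2 change 1.23, SE 0.23, adjusted p = 0.00773). Sema3b, another secreted ligand, had 24.9, 30.9, 34.5 and 22.9 in lung metastases, against 15.5, 19.7, 12.9 and 12.2 in primary tumors (log2 change 0.87, SE 0.232, adjusted p = 0.0413). This was the smallest of the class-3 rises, and its call ended with the mouse as a block (adjusted p = 0.0728) and without any of 6 libraries, those of lung metastases 1 to 3 and primary tumors 1, 3 and 4 (0.0527 to 0.137; 0.00344 to 0.137 over 18 alternatives).

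Sema3f, a ligand of Nrp2 that human genetics places among the candidate tumor suppressors, was the exception. It had 190, 146, 286 and 199 in lung metastases, against 174, 364, 179 and 230 in primary tumors. The groups overlapped and the mice did not share a direction: the metastasis was higher in 2 mice and lower in 2. The log2 change was -0.18 with a 95% interval of -0.79 to 0.43 (adjusted p = 0.735), an interval that lies below the estimates of the 6 genes that rose. Summed over the 7 genes, without regard to their lengths, the class had 463, 481, 853 and 411 in lung metastases and 232, 423, 225 and 270 in primary tumors. The sum in primary tumor 2 exceeded that in lung metastasis 4.

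**Figure D2:**
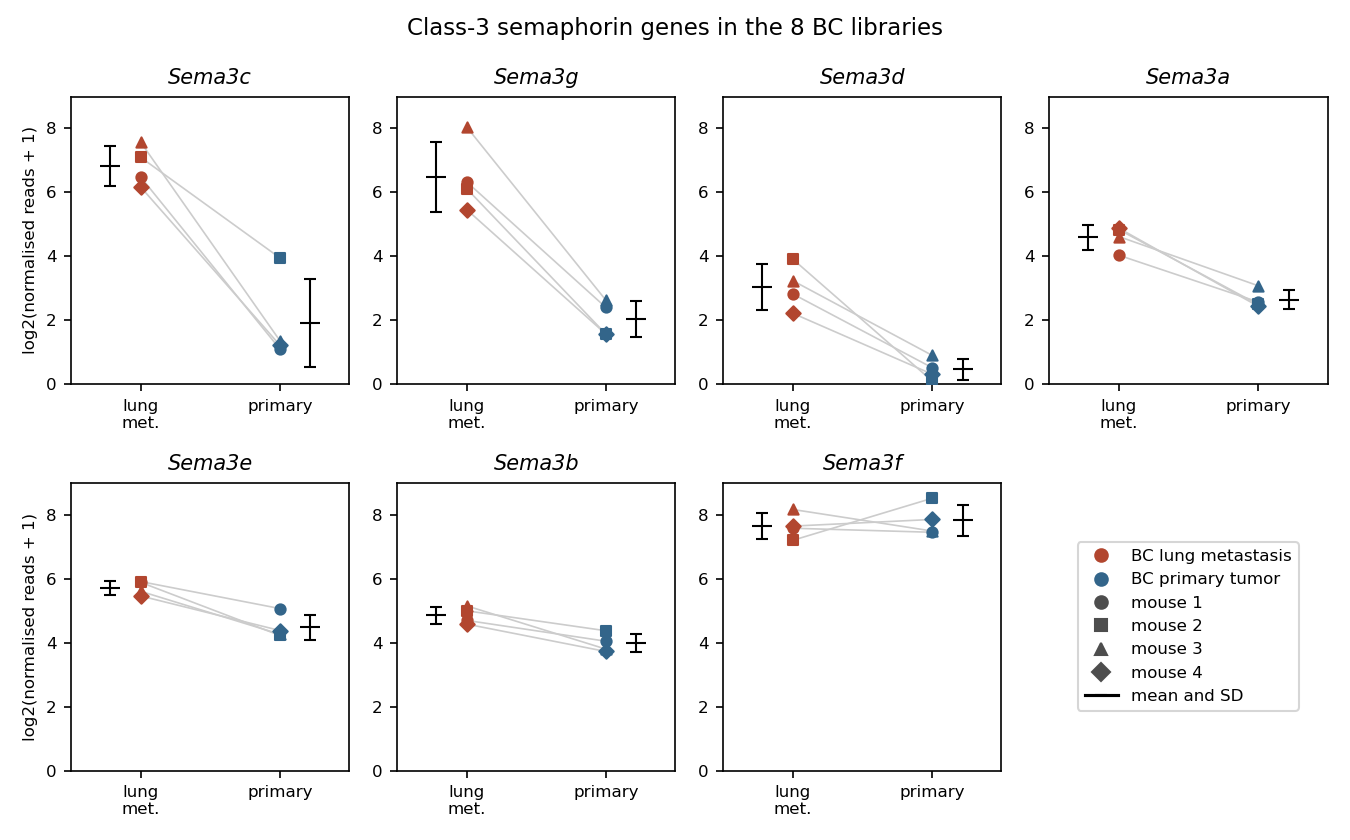
Level of the 7 class-3 semaphorin genes, log2(normalised reads + 1), in lung metastases (red, left) and primary tumors (blue, right); markers and grey lines give the mouse, black bars the mean ± SD (n = 4). The groups are apart in all panels but that of Sema3f, and primary tumor 2 is the high point of the Sema3c primary tumors.

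Among the genes that rose, those with a start window did not look alike. Sema3b, Sema6a and Plxna4 had no window here. The windows below are the 300 bases from 250 before to 50 after the annotated start, from RefSeq on GRCm38.p6. They are shown for the 4 class-3 genes with the largest log2 changes, 5′ to 3′, with GC boxes (GGGCGG on either strand) in capitals.
Sema3g (chr14:31217623-31217922, plus strand): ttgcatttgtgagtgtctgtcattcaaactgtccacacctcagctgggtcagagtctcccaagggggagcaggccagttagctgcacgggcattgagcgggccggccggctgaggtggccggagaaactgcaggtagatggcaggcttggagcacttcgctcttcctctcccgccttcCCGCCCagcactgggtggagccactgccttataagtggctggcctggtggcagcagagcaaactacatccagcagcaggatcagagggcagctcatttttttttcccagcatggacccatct
Sema3c (chr5:17574566-17574865, plus strand): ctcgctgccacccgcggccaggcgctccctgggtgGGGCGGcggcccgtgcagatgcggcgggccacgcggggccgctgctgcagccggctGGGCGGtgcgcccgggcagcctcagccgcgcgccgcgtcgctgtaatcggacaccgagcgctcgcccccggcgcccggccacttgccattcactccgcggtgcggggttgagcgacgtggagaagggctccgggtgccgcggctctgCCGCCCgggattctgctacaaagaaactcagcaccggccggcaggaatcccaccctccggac
Sema3d (chr5:12382916-12383215, plus strand): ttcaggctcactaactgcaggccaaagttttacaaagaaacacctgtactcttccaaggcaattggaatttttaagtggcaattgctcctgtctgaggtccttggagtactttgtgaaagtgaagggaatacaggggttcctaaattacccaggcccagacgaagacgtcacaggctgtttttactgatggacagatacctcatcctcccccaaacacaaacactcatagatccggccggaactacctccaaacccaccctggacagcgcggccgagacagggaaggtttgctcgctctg
Sema3a (chr5:13396534-13396833, plus strand): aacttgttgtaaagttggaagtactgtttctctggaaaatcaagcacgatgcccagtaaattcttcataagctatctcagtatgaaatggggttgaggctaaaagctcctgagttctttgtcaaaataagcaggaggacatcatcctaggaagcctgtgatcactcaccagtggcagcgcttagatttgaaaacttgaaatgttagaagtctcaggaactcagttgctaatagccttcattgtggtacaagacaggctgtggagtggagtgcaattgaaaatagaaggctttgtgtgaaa
The window of Sema3c has 42 CpG pairs and 3 GC boxes, whereas that of Sema3a has 2 CpG pairs and 0 GC boxes. Sema3g has 8 CpG pairs and 1 GC box, and Sema3d 8 and 0. The window of Sema3e (chr5:14025026-14025325) has 11 and 2. The 4 class-3 genes Sema3a, Sema3c, Sema3d and Sema3e have these windows on chromosome 5 and Sema3g on chromosome 14. Over 40 guidance genes with a window in the table (53 windows), the median was 18 CpG pairs against 7 over all 32851 windows, and 75.5% held a GC box against 35.7%. Both strands were searched for 4 other short motifs: TATAAA was in 1.89% of the guidance windows against 13.6% of all, CCAAT in 30.2% against 37.4%, CACGTG in 5.66% against 7.15%, and TGANTCA, the AP-1 site, in 5.66% against 7.81%. Of the 7 windows that belong to genes that rose, 5 held a GC box, 2 held CCAAT, 1 held CACGTG and 0 held TATAAA or TGANTCA. Such matches only describe the letters of these windows.

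Among the membrane-bound semaphorins, 1 of 12 rose, where 7.18% of all tested genes were called higher. A count this small was not tested against that share. Sema6a, a ligand of class-A plexins, had 14.9, 13.7, 47.4 and 10.8 in lung metastases, against 3.18, 7.45, 6.27 and 5.57 in primary tumors (log2 change 1.58, SE 0.438, adjusted p = 0.0495). The groups did not overlap, and lung metastasis 3 lay far above the other metastases. This call had the largest adjusted p of the 10, and it ended under 11 of 18 alternatives (adjusted p 0.0023 to 0.143), among them both rescalings, the pseudocount of 5, and the removal of any library other than lung metastasis 3 or 4. The other class-6 genes did not pass. Sema6b had 50.2, 42.4, 142 and 33.7 in lung metastases, against 23.0, 45.8, 29.8 and 18.6 in primary tumors (adjusted p = 0.186). Sema6c had 2.53, 2.21, 4.12 and 4.29 in lung metastases, against 8.26, 5.64, 7.28 and 7.26 in primary tumors. Every metastasis was below every primary tumor in Sema6c, though the test did not pass (log2 change -0.94, adjusted p = 0.0699); it passed with DESeq2 (adjusted p = 0.0302), with array weights (0.00714), and without lung metastasis 3 or 4 (0.046 and 0.0497; 0.00714 to 0.177 over 18 alternatives). Sema6d averaged 26.4 ± 10.9 in lung metastases and 21.5 ± 6.66 in primary tumors.

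The 6 class-4 semaphorins gave 0 calls by limma and by edgeR, with 2 higher and 2 lower at an unadjusted p under 0.05, and 2 higher by DESeq2. By limma, 7.18% of all tested genes were called higher and 1.96% lower. Sema4a, a ligand known from T cell priming, had 109, 69.8, 226 and 43.0 in lung metastases, against 39.6, 20.9, 54.3 and 38.4 in primary tumors. The metastasis was higher in all 4 mice, but lung metastasis 4 lay within the range of the primary tumors (log2 change 1.33, adjusted p = 0.106). With the mouse as a block it passed (adjusted p = 0.0338), as it did with DESeq2 (0.0122), array weights (0.0285) and without lung metastasis 4 (0.0281; 0.0122 to 0.233 over 18 alternatives). Sema4f had 10.0, 8.82, 20.5 and 4.50 in lung metastases, against 5.56, 2.84, 3.10 and 3.03 in primary tumors. Its groups overlapped only through the low metastasis of mouse 4 and the high primary tumor of mouse 1 (log2 change 1.24, adjusted p = 0.0931), and it passed with DESeq2 (0.0134), array weights (0.0178) and without lung metastasis 4 (0.024; 0.0134 to 0.221). Sema4c, a Plxnb2 ligand, had 164, 77.4, 93.2 and 80.3 in lung metastases, against 174, 127, 136 and 169 in primary tumors. The metastasis was lower in all 4 mice (log2 change -0.60, adjusted p = 0.172), and the test passed without lung metastasis 1 alone (0.0305; 0.0305 to 0.359). Sema4g averaged 2.27 ± 1.76 in lung metastases and 5.19 ± 1.70 in primary tumors. Sema4d, the lymphocyte semaphorin CD100, averaged 47.8 ± 18.1 in lung metastases and 38.2 ± 2.38 in primary tumors, and Sema4b 36.3 ± 4.68 in lung metastases and 34.7 ± 4.83 in primary tumors.

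Sema5a, which carries thrombospondin repeats, had 23.6, 27.5, 55.0 and 16.2 in lung metastases, against 16.1, 9.35, 27.0 and 22.0 in primary tumors (adjusted p = 0.371). Sema7a, the lipid-anchored ligand of Plxnc1 and of integrins, had 112, 108, 241 and 36.7 in lung metastases, against 61.4, 112, 141 and 59.4 in primary tumors (adjusted p = 0.823). Both genes overlapped between the groups, and Sema7a spanned both its highest and its lowest value within the metastases.

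Receptors of the semaphorins gave 2 rises among 8 plexins and 0 among 2 neuropilins by limma, edgeR and DESeq2. Over all tested genes, limma called 7.18% higher. Neither neuropilin had an unadjusted p under 0.05. Plxna4, which relays class-3 signals together with a neuropilin, had the smallest p of all members. Its values were 17.3, 26.0, 41.0 and 16.9 in lung metastases, against 2.50, 1.85, 2.06 and 2.75 in primary tumors. Every metastasis lay far above the narrow band of the primary tumors, with a ratio of the means of 11.0 (log2 change 2.92, SE 0.32, adjusted p = 0.00041). An antisense transcript, Plxna4os3, shares 0.78% of the exonic bases of Plxna4 in GENCODE M21, so an unstranded count could hold reads of either. Plxnc1, the receptor of Sema7a, had 22.6, 21.1, 44.5 and 13.5 in lung metastases, against 4.69, 12.1, 2.53 and 5.49 in primary tumors (log2 change 1.91, SE 0.444, adjusted p = 0.0224). The groups were apart by a small margin, between lung metastasis 4 and primary tumor 2. Its call ended without lung metastasis 1 or 2 or primary tumor 1, 3 or 4 (0.0519 to 0.0687; 0.00143 to 0.0687 over 18 alternatives). The gene of the receptor passed and that of its ligand Sema7a did not, but their changes were not compared. The 95% interval of the log2 change was 0.93 to 2.90 for Plxnc1 and -0.88 to 1.32 for Sema7a, and these overlap.

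For Sema3e the ligand gene passed and the receptor gene did not, again with no comparison of their changes. That receptor gene, Plxnd1, known from endothelium, had 65.0, 59.1, 116 and 55.6 in lung metastases, against 69.8, 143, 86.0 and 80.4 in primary tumors (log2 change -0.37, 95% interval -0.99 to 0.26, adjusted p = 0.472). Plxna1, the A plexin with the highest mean, had 58.7, 86.1, 142 and 56.8 in lung metastases, against 63.6, 62.5, 70.4 and 58.8 in primary tumors (adjusted p = 0.508). Plxna2 averaged 20.7 ± 24.2 and 4.84 ± 4.71 in lung metastases and primary tumors, a difference that came mostly from 57.0 in lung metastasis 3 (adjusted p = 0.17). Plxna3 averaged 15.5 ± 4.25 in lung metastases and 23.7 ± 5.99 in primary tumors (adjusted p = 0.216), lower in the metastasis of all 4 mice. The B plexins, receptors of class-4 semaphorins, did not pass. Plxnb2 had 180, 249, 231 and 244 in lung metastases, against 212, 267, 250 and 205 in primary tumors, and the 95% interval of its log2 change was -0.43 to 0.33. Plxnb1, the receptor of Sema4d, averaged 75.7 ± 34.3 in lung metastases and 83.0 ± 13.4 in primary tumors.

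Both neuropilins, the shared receptors of class-3 semaphorins and VEGF, were measured in depth. Nrp2 had 179, 223, 120 and 179 in lung metastases, against 195, 252, 196 and 203 in primary tumors (log2 change -0.29, 95% interval -0.75 to 0.16, adjusted p = 0.428). Its metastasis was lower in all 4 mice, by margins within the spread between libraries. Nrp1 averaged 178 ± 45.7 in lung metastases and 124 ± 33.3 in primary tumors (log2 change 0.52, 95% interval -0.01 to 1.05, adjusted p = 0.226) and was higher in the metastasis of 3 of 4 mice.

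The Eph receptors gave 1 rise among 8 tested genes, with a median log2 change of -0.25. For comparison, 7.18% of all tested genes were called higher. Epha4, which binds ephrins of both types, had 3.16, 5.59, 10.7 and 7.65 in lung metastases, against 1.19, 0.789, 2.16 and 0.528 in primary tumors. The lowest metastasis was above the highest primary tumor (log2 change 1.80, SE 0.388, adjusted p = 0.0155). These primary tumor values rest on 129 reads over 4 libraries, and the call ended without primary tumor 4 (adjusted p = 0.0608; 0.000264 to 0.0608 over 17 alternatives). Epha3 had 0.83, 3.77, 2.03 and 4.33 in lung metastases, against 0, 0, 1.58 and 0.247 in primary tumors (adjusted p = 0.0927). Epha7 had 1.23, 1.39, 2.50 and 0.588 in lung metastases, against 0, 0.276, 0.573 and 0 in primary tumors, and Ephb1 averaged 1.69 ± 1.22 and 0.542 ± 0.364; both are given as values with no test.

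The other tested Eph genes did not pass, and their changes lay on both sides of 0. Ephb4, the venous partner of Efnb2, had 134, 121, 156 and 127 in lung metastases, against 175, 183, 214 and 211 in primary tumors. No metastasis reached the lowest primary tumor (log2 change -0.54, SE 0.154, adjusted p = 0.0558). It passed with DESeq2 (0.0289), array weights (0.00313) and without lung metastasis 3 (0.00875; 0.00313 to 0.177 over 18 alternatives). Ephb6, a receptor without kinase activity, had 11.6, 16.2, 12.8 and 9.07 in lung metastases, against 19.9, 18.4, 37.5 and 25.9 in primary tumors (log2 change -0.95, SE 0.279, adjusted p = 0.062), again without overlap. It passed with DESeq2 (0.0161) and array weights (0.0201; 0.0161 to 0.181). Epha2, the main EphA receptor of epithelia, had 123, 144, 74.4 and 148 in lung metastases, against 148, 156, 168 and 115 in primary tumors (log2 change -0.29, 95% interval -0.81 to 0.23, adjusted p = 0.489). Epha1 averaged 51.9 ± 15.8 in lung metastases and 66.9 ± 10.8 in primary tumors (adjusted p = 0.367), Ephb2 18.8 ± 9.80 and 18.8 ± 1.99 (0.808), and Ephb3 13.3 ± 8.74 and 7.05 ± 2.39 (0.388). Epha2, Epha1 and Ephb2 each had their lowest value of all 8 libraries in lung metastasis 3, the library with the lowest carcinoma marker sum. Ephb3 (25.5), Epha4 (10.7) and Epha7 (2.50) had their highest value in that same library. Any link of these levels to tumor content was not tested.

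**Figure D3:**
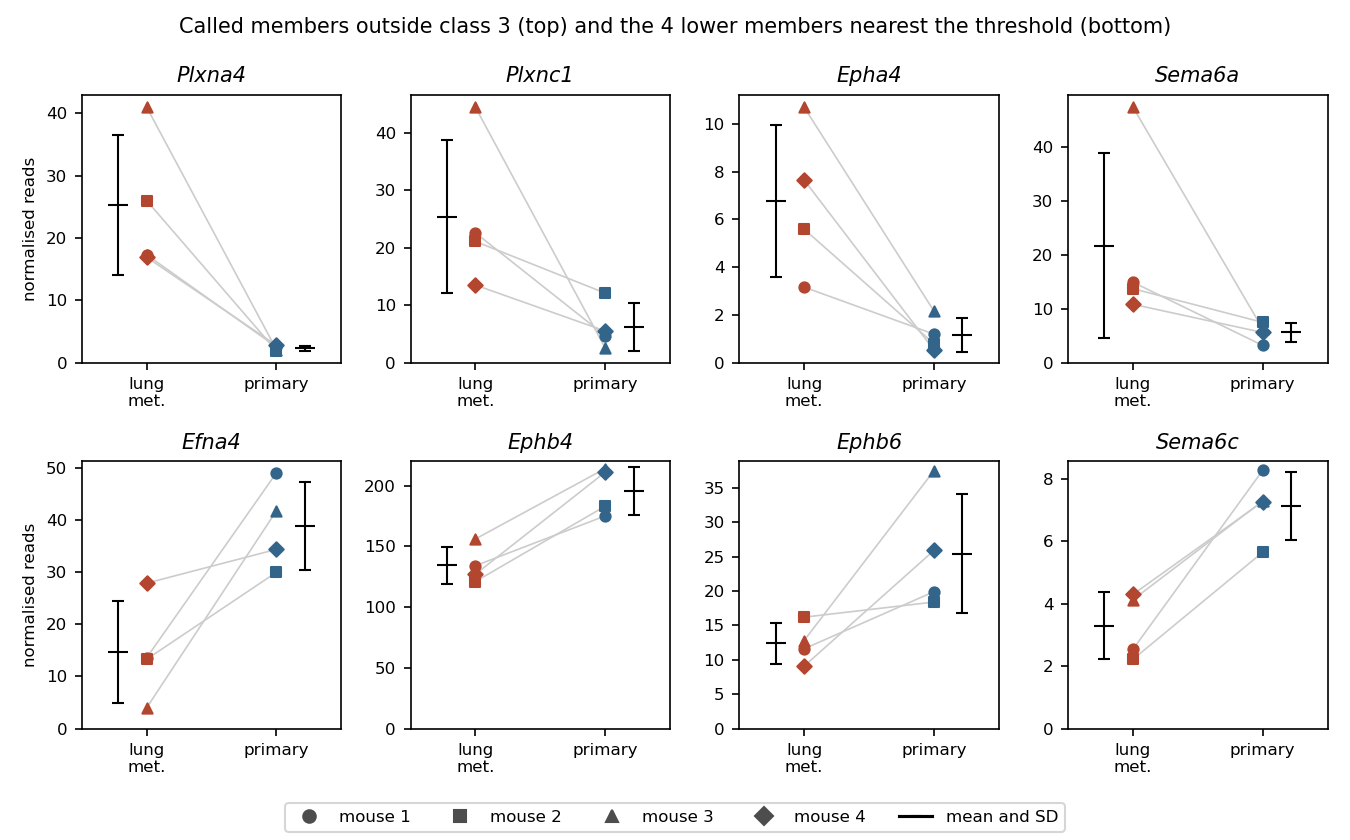
Normalised reads in lung metastases (red, left) and primary tumors (blue, right) for the 4 members outside class 3 that rose (top row) and the 4 lower members nearest the threshold (bottom row); markers and lines give the mouse, black bars the mean ± SD (n = 4). The groups are apart in all 8 panels, and lung metastasis 3 is the high point of every top panel.

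The 7 ephrins gave 0 calls by limma and by edgeR, with 2 higher and 1 lower at an unadjusted p under 0.05 and, by DESeq2, 1 in each direction. The limma shares over all tested genes were 7.18% higher and 1.96% lower. All 3 B ephrins had positive changes. Efnb1 had 38.6, 41.4, 108 and 38.9 in lung metastases, against 27.4, 19.2, 33.0 and 25.3 in primary tumors; the groups did not overlap, and lung metastasis 3 lay far from the other 3 (log2 change 0.96, SE 0.33, adjusted p = 0.109; 0.0305 with DESeq2, and 0.0305 to 0.229 over 18 alternatives). Efnb2, the arterial ligand of Ephb4, had 108, 123, 176 and 130 in lung metastases, against 86.3, 129, 129 and 69.6 in primary tumors (adjusted p = 0.356). Efnb3 averaged 1.81 ± 0.598 and 0.586 ± 0.450 in lung metastases and primary tumors (adjusted p = 0.162), also without overlap.

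Of the 4 A ephrins, 3 had negative changes. Efna4 had 13.6, 13.3, 3.99 and 27.9 in lung metastases, against 49.1, 30.0, 41.8 and 34.4 in primary tumors. Every metastasis was below every primary tumor, with lung metastasis 3 lowest and lung metastasis 4 close to the primary tumors (log2 change -1.57, SE 0.448, adjusted p = 0.0553). It passed with DESeq2 (0.0343), array weights (0.00323) and without lung metastasis 3 or 4 (0.0269 and 0.0118; 0.00323 to 0.155 over 18 alternatives). An antisense transcript shares 10.5% of the exonic bases of Efna4, and the counting is not stated to use strand, so its value is uncertain. Other genes share 10.7% of the exonic bases of Plxna1, 7.27% of Sema4c, 6.01% of Epha1 and at most 2.68% of any other member, with the same limit. Efna1, a ligand of Epha2, had 66.6, 45.5, 63.7 and 69.1 in lung metastases, against 87.3, 74.2, 96.1 and 67.1 in primary tumors (adjusted p = 0.234). Efna5 averaged 7.17 ± 1.04 in lung metastases and 9.64 ± 3.52 in primary tumors, and Efna2, which had the positive change, 2.66 ± 1.18 and 1.44 ± 0.550.

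Divided by the exonic length of each gene in GENCODE M21, mean levels can be set beside each other, as values per kilobase. Among class-3 semaphorins, Sema3f was highest in both tissues, at 39.5 in lung metastases and 45.5 in primary tumors. Sema3g came next in lung metastases, at 25.0 against 0.739 in primary tumors, followed by Sema3c, at 17.0 against 0.651. In the primary tumors the gene behind Sema3f was Sema3b, at 5.93 in lung metastases and 3.16 in primary tumors. Among plexins, Plxnb2 led in both tissues (29.3 in lung metastases and 30.2 in primary tumors), and Plxna4 stayed low per kilobase in spite of its rise (1.79 against 0.162). Nrp1 was above Nrp2 in lung metastases (18.1 and 14.8) and below it in primary tumors (12.7 and 17.8); these orders of means were not tested. Ephb4 and Epha2 led the Eph receptors, at 29.0 and 26.2 in lung metastases and 42.2 and 31.4 in primary tumors. Efna1 led the ephrins (33.5 in lung metastases and 44.3 in primary tumors), with Efnb2 next in lung metastases (19.6) and Efna4 next in primary tumors (24.3).

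Markers of several cell types moved with the same contrast, in which 7.18% of all tested genes were called higher and 1.96% lower. The sum of 8 endothelial genes was 502 to 2187 in lung metastases and 168 to 781 in primary tumors, a ratio of the mean sums of 2.90, with 4 of 8 genes called higher. Lyve1, the only 1 of 3 listed lymphatic genes that had values, ran from 45.7 to 238 in lung metastases and 1.46 to 20.7 in primary tumors. A single gene does not measure lymphatic vessels. Alveolar type 2 sums differed by a ratio of 72.0 (5 of 6 genes higher), alveolar type 1 by 39.6 (6 of 6), airway epithelium by 2343 (3 of 4), neutrophil by 29.9 (6 of 6) and mesothelium by 3.67 (5 of 5). Nkain4 was the only gene of these lists at 0 in all primary tumors. The mean alveolar type 2 sum in primary tumors, 97.0, was mostly Abca3 (94.9), which was not called (limma adjusted p = 0.114). For the other alveolar type 2 genes the ratios of the means ran from 437 (Lamp3) to 3756 (Sftpb). T and NK cell genes had a sum of 25.0 to 59.8 against 3.37 to 16.2 (2 of 6 higher), and B cell genes 5.59 to 19.8 against 0.881 to 1.26, with 1 gene tested and higher. Mural cell sums were 87.5 to 211 in lung metastases and 120 to 369 in primary tumors, with 2 of 7 genes lower. Fibroblast sums overlapped (1222 to 2377 against 668 to 2169, 1 of 6 higher), as did macrophage sums (528 to 1095 against 790 to 1801, 0 of 6 called either way by limma, edgeR or DESeq2 and 3 lower at an unadjusted p under 0.05). Nerve and Schwann cell genes were near the floor in both tissues, with a sum over 4 genes of 5.48 to 10.4 in lung metastases and 1.89 to 6.91 in primary tumors. Adipocyte genes summed to 3.74 to 13.6 against 18.8 to 255 (1 of 2 tested genes lower), with Adipoq at 0 in the lung metastases, and keratinocyte genes to 3.18 to 14.2 against 6.67 to 20.0 (0 of 1 called).

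Both the alveolar and the endothelial sums were highest in lung metastasis 3 and lowest in lung metastasis 4. Of the 10 guidance genes that rose, 7 were highest in lung metastasis 3, where 83.9% of all genes called higher had their top value. Plxna4, Sema3c and Sema3b followed the order of the alveolar sums across the metastases (3, 2, 1, 4). Sema3g, Plxnc1 and Sema6a followed that of the endothelial sum (3, 1, 2, 4). Sema3a, Sema3d, Sema3e and Epha4 followed neither. The mural cell and B cell sums and Lyve1 also had the order 3, 1, 2, 4, so it is not particular to endothelium. The share of all genes with either order was not counted. In mouse 2 the endothelial sum was lower in the metastasis than in the primary tumor (673 against 781). The list was split there. Vwf (68.0 against 24.7), Tek (55.2 against 11.8), Cldn5 and Esam were higher in that metastasis. Pecam1 (116 against 198), Cdh5, Tie1 and Emcn were lower. All 10 guidance genes that rose were higher in that metastasis. This follows from the lack of overlap between their groups and is not a separate result. Without lung metastasis 3, 9 of the 10 calls were kept. The part of lung tissue or of vessel content in these rises was not tested.

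**Figure D4:**
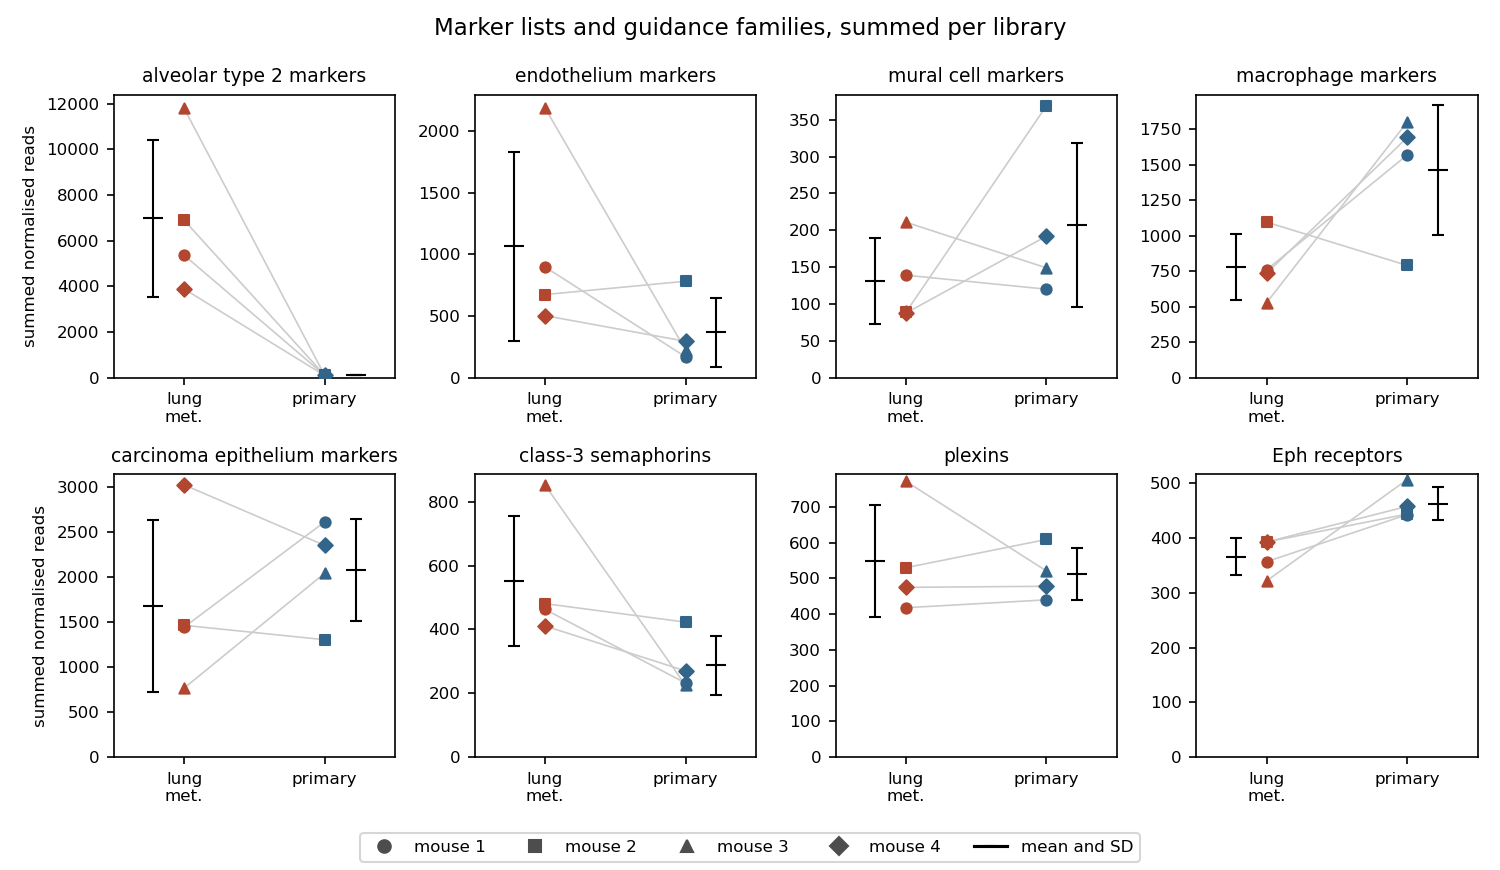
Summed normalised reads of 5 marker lists and 3 guidance groups in lung metastases (red, left) and primary tumors (blue, right); markers and lines give the mouse, black bars the mean ± SD (n = 4). The alveolar sum separates the groups, the endothelial and class-3 sums overlap through primary tumor 2, and the Eph receptor sum is lower in all 4 metastases.

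Other guidance genes and partners were read from the same fit, in which 7.18% of all tested genes were called higher and 1.96% lower. The counts of these short lists were not tested against those shares. Of 5 tested Slit and Robo genes 2 rose and 0 fell, with a median log2 change of 0.89. Slit3, a secreted Robo ligand, averaged 37.3 ± 9.32 in lung metastases and 5.49 ± 2.55 in primary tumors (adjusted p = 0.000725), and Robo2 averaged 6.03 ± 7.19 against 0 reads in primary tumors (adjusted p = 0.0196). Of 9 netrin and netrin receptor genes 1 rose and 1 fell, with a median of -0.09. Ntn4, a laminin-binding netrin, averaged 32.8 ± 18.7 in lung metastases and 3.71 ± 1.62 in primary tumors (adjusted p = 0.00168). The netrin receptor gene Unc5b, known from vessels, averaged 130 ± 32.0 in lung metastases and 323 ± 64.0 in primary tumors (adjusted p = 0.00518). Among 8 VEGF ligands and receptors, which share the neuropilins, 3 rose and 0 fell, with a median of 1.05. Figf, the gene of VEGF-D, averaged 15.1 ± 12.8 in lung metastases and 0.33 ± 0.363 in primary tumors (adjusted p = 0.00372). The VEGF receptor gene Kdr averaged 84.6 ± 54.3 and 15.8 ± 8.03 (adjusted p = 0.00954), and Flt1 171 ± 61.9 and 82.5 ± 16.5 (adjusted p = 0.0365).

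Of 30 plexin partners and effectors 5 rose and 2 fell, with a median of 0.28. The cell adhesion genes Nrcam (16.3 ± 5.37 in lung metastases and 1.72 ± 0.495 in primary tumors, adjusted p = 0.000619) and L1cam (23.5 ± 12.9 and 3.69 ± 1.21, adjusted p = 0.00295) rose. So did Mst1r, a receptor kinase (5.37 ± 2.83 and 0.183 ± 0.271, adjusted p = 0.00298). Of 19 Eph and ephrin effectors 2 rose and 2 fell, with a median of -0.22. For both lists, the shares over all tested genes were 7.18% higher and 1.96% lower. The adaptor gene Nck2 averaged 46.0 ± 11.0 in lung metastases and 91.5 ± 4.55 in primary tumors (adjusted p = 0.0106), and Vav3, an exchange factor, 45.8 ± 5.02 and 79.7 ± 13.3 (adjusted p = 0.0169). Grb10 averaged 39.4 ± 8.48 and 17.8 ± 5.77 (adjusted p = 0.0227), and Grip1, which binds B ephrins, 2.54 ± 1.68 against 0 reads in primary tumors (adjusted p = 0.0124).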

How the data were processed

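The 8 BC libraries (4 lung metastases, 4 primary tumors) were analysed; the 12 pancreatic columns were not used. The authors deposited the signal per gene, read counts scaled by a factor of each library. Column totals ran from 962401 to 1044330, which differ from the total of plain CPM. Per the submitters' processing notes the build was mm9; aligner, counter and annotation: not given in the sources used here. TruSeq RNA kits were used, per the labels' protocols.

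Dividing by what 1 read is worth gave whole reads for 100% of values, within 0.05 reads. The test was limma 3.58.1 with an intensity trend on log2(value + 1), with group means only, over 14003 genes that reached 1 in 4 or more libraries; calls were made at a Benjamini-Hochberg adjusted p under 0.05. It was also run on simulated reads with changes of 4-fold or more and the same spread setting for all genes. That run does not cover smaller changes or a library that stands apart. Alternatives were pseudocounts of 0.1 and 5, filters, 2 rescalings, edgeR 4.0.16 (1050 calls over all genes) and DESeq2 1.42.0 on recovered reads, array weights, a mouse block and leaving out each library.

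Titles number the mice, so numbers pair the tissues of 1 animal; the correlation of deviations from the tissue means within a mouse was -0.151 to 0.096. All p-values given as adjusted are from limma unless another tool is named. Exonic lengths and overlaps were from GENCODE M21, of another build, and no coordinates of the files were used. Reads carry no molecular identifiers, so read totals speak to counting error only.

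The members, the gene lists and the tests were chosen with earlier results of these data known. The members given with values in all 8 libraries are those called, the 8 next by p, and the one with the highest mean of each subfamily, 30 in all; of each pathway list, up to 4 called genes with the smallest p are named, and an item withheld for evaluation is not reported here.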

Additional observations from a re-analysis of the deposited data

Results flagged for a closer look

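In 8 of 126 groups of 4 libraries (46 guidance genes and 17 marker sums, each in both tissues, on the log2 scale), the gap between an extreme library and its nearest neighbour exceeded Dixon's 95% critical share of the group's whole range. Chance gives about 1 in 20 such groups. Among lung metastases this held for Efnb1, which was high in lung metastasis 3 (gap of 0.932 of the range). Among primary tumors, primary tumor 2 was high in Sema3c (0.907) and in Nrp2 (0.836) and low in the fibroblast sum (0.917) and the macrophage sum (0.833). Ephb1 was low in primary tumor 1 (0.881), Sema4f was high in primary tumor 1 (0.877), and Sema4d was high in primary tumor 3 (0.883). Without primary tumor 2 or without lung metastasis 3, the call of Sema3c was kept, and Efnb1, Nrp2 and Sema4f did not pass. What set these libraries apart was not tested.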

How the results depend on the processing

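Sema3a, Sema3c, Sema3d, Sema3e, Sema3g and Plxna4 kept their call in every alternative that tested them, and no called gene changed direction. The count of rises was 10 in the reported fit, 10 with the mouse as a replicate block and 6 to 12 with a library left out, with the 6 without primary tumor 4; it was 7 to 13 in the other alternatives. The block gave 0 falls, 1112 calls over all genes and a median log2 change of 0.36, lost Sema3b and added Sema4a; it changed no other call of a guidance gene. The count of falls, 0 as reported, was 4 with DESeq2, 5 with array weights, and 0 to 3 with a library left out. Calls over all genes, 1279 as reported, were 1985 with DESeq2, 2283 with array weights and 711 to 1603 with a library left out, lowest without primary tumors 4, 1 and 3 (711, 851 and 852). The median log2 change of the members was 0.27 to 0.48 with a library left out and 0.25 to 0.48 otherwise. The filter of 5 tested 38 members and left out Epha4 and Sema3d. The causes of these differences were not tested. Low counts limit Epha7, Ephb1, Epha3 and Efnb3, and 4 mice of 1 tumor line limit all comparisons.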
